A study of Mus musculus with 8 samples.

Results

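A group of 9 mature miRNAs, known from other cells as inducible by inflammatory signals, was followed in cultured mouse articular chondrocytes exposed to interleukin-1β (IL-1β), a cytokine of joint inflammation that signals through NF-κB. The members were chosen by name, as mmu-miR-155-5p, both arms of mmu-miR-132, mmu-miR-212 and mmu-miR-31, mmu-miR-224-5p and mmu-miR-34a-5p (mmu marks mouse and is mostly left out from here on), out of 1966 names in the deposited table. All 9 had at least 1 count, and 8 of the 9 passed the filter on low counts that 564 miRNAs of the table passed. The cells came from the femoral heads of wild-type mice at 3 weeks of age, were cultured with serum and received IL-1β at 1 ng/ml (n = 4 libraries) or vehicle (n = 4 libraries) for 24 h. Whether cells of several animals were pooled, and whether the 4 libraries of a group were separate cultures, was not stated, so p-values measure the spread between these libraries.

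Mature miRNAs are excised from the 5′ arm (5p) or the 3′ arm (3p) of a hairpin and guide a silencing complex to mRNAs, mainly through bases 2 to 8, the seed. miR-155 is processed from the non-coding RNA Mir155hg and is known from activated macrophages and lymphocytes, where Socs1 is one of its targets. miR-132 and miR-212 lie side by side, are transcribed together and respond to the transcription factor CREB. miR-31 is known from endothelium and epithelium, where TNF induces it. miR-224 lies within Gabre, a gene for a subunit of the GABA-A receptor, and miR-34a is a target of p53 that represses Sirt1 and Bcl2.

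The mature sequences are shown because the seeds tell which members can share targets. Each is printed 5′ to 3′ from RefSeq (GRCm38.p6), with the seed in capitals. All 9 names matched 1 locus each.

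miR-155-5p: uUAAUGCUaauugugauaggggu

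miR-132-3p: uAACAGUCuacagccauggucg

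miR-212-3p: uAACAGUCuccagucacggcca

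miR-132-5p: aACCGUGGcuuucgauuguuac

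miR-212-5p: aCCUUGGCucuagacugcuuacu

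miR-31-5p: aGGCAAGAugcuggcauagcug

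miR-31-3p: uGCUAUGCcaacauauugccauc

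miR-224-5p: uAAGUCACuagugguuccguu

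miR-34a-5p: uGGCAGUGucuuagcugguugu

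The 9 members carried 8 seeds, and miR-132-3p and miR-212-3p were the only pair with the same one. These 2 were identical at 17 of 22 positions. Counted from the 5′ end, with the base of miR-132-3p given before the position and that of miR-212-3p after it, they differed by A10C, C14U, U17C, U20C and G22A, all outside the seed.

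The hairpins of the members with counts from both arms under study are shown with both mature arms in capitals. Mir212 (chr11:75173388-75173478) and Mir132 (chr11:75173682-75173747) lay on the plus strand, 204 bases apart, in an intron of the non-coding transcript 1700016P03Rik. Mir31 (chr4:88910557-88910662, minus strand) lay in an exon of the long non-coding RNA AL805899.1.

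Mir132: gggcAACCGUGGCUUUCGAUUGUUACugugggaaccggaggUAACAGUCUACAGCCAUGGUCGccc

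Mir212: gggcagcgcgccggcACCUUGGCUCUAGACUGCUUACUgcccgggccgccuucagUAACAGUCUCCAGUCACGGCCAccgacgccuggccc

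Mir31: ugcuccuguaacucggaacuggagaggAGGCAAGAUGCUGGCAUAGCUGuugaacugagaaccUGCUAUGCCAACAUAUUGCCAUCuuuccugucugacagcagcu

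Mir155 (chr16:84714140-84714204, plus strand) lay in an exon of Mir155hg. Mir224 (chrX:72261031-72261112, minus strand) lay in an intron of Gabre, 1112 bases from Mir452. Mir34a (chr4:150068454-150068555, plus strand) overlapped the start of Gm37795, a transcript of unsettled coding status. Gene models are those of GENCODE vM21 (GRCm38).

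Library totals ranged from 616475 to 1568367 counts, so that 1 count was worth 0.625 to 1.6 normalized CPM, the unit of abundance used here (CPM, counts per 1000000 of a library, with totals scaled by the trimmed mean of M values, TMM). IL-1β replicate 4 stood apart. Its abundances deviated from the mean of the other IL-1β libraries with an SD of 0.40 on the log2 scale over 195 miRNAs, against 0.15 to 0.23 in the other 7 libraries. Chondrocyte miRNAs (both arms of miR-140 and miR-455) were measured in every library. With totals not scaled by TMM, they summed to 155686 to 167664 CPM with vehicle and 123579 to 153426 CPM with IL-1β. In normalized CPM the groups overlapped for the most abundant of them, miR-140-3p (147610 to 163549 with vehicle, 129168 to 151712 with IL-1β). None of the 4 was called. Of markers of other cells, haematopoietic miRNAs are given beside miR-155-5p. Muscle and liver markers had 0 counts, endothelial markers 8, neuronal markers 3 and epithelial markers 20. The epithelial markers were at 0 to 1.58 unscaled CPM with vehicle and 1.62 to 10.1 with IL-1β. At so few counts, the gap between these 2 ranges was smaller than the worth of 1 count. The part of these differences in the results was not tested. A normalized CPM is a share of the miRNA in a library, so fewer cells of a type and less RNA per cell cannot be told apart.

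The members spanned a wide range of abundance. miR-31-5p was first in this order, at a mean of 2860 normalized CPM over the 8 libraries, and ranked 38 among the 564 tested miRNAs. miR-132-3p (106), miR-155-5p (54.9), miR-34a-5p (31.2), miR-212-3p (23.7), miR-224-5p (13.0), miR-132-5p (5.42) and miR-212-5p (4.12) followed, and miR-31-3p (0.544) was last. Listed lengths were 21 to 23 nt, and the order per nt of length was the same. The values of miR-31-5p and of miR-132-3p did not overlap those of the member next below. Values of miR-155-5p and miR-34a-5p overlapped across libraries although miR-155-5p was the higher in each of the 8, as did those of miR-34a-5p and miR-212-3p, of miR-212-3p and miR-224-5p, and of miR-132-5p and miR-212-5p. This is an order of counts, not of molar amounts.

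**Figure D1:**
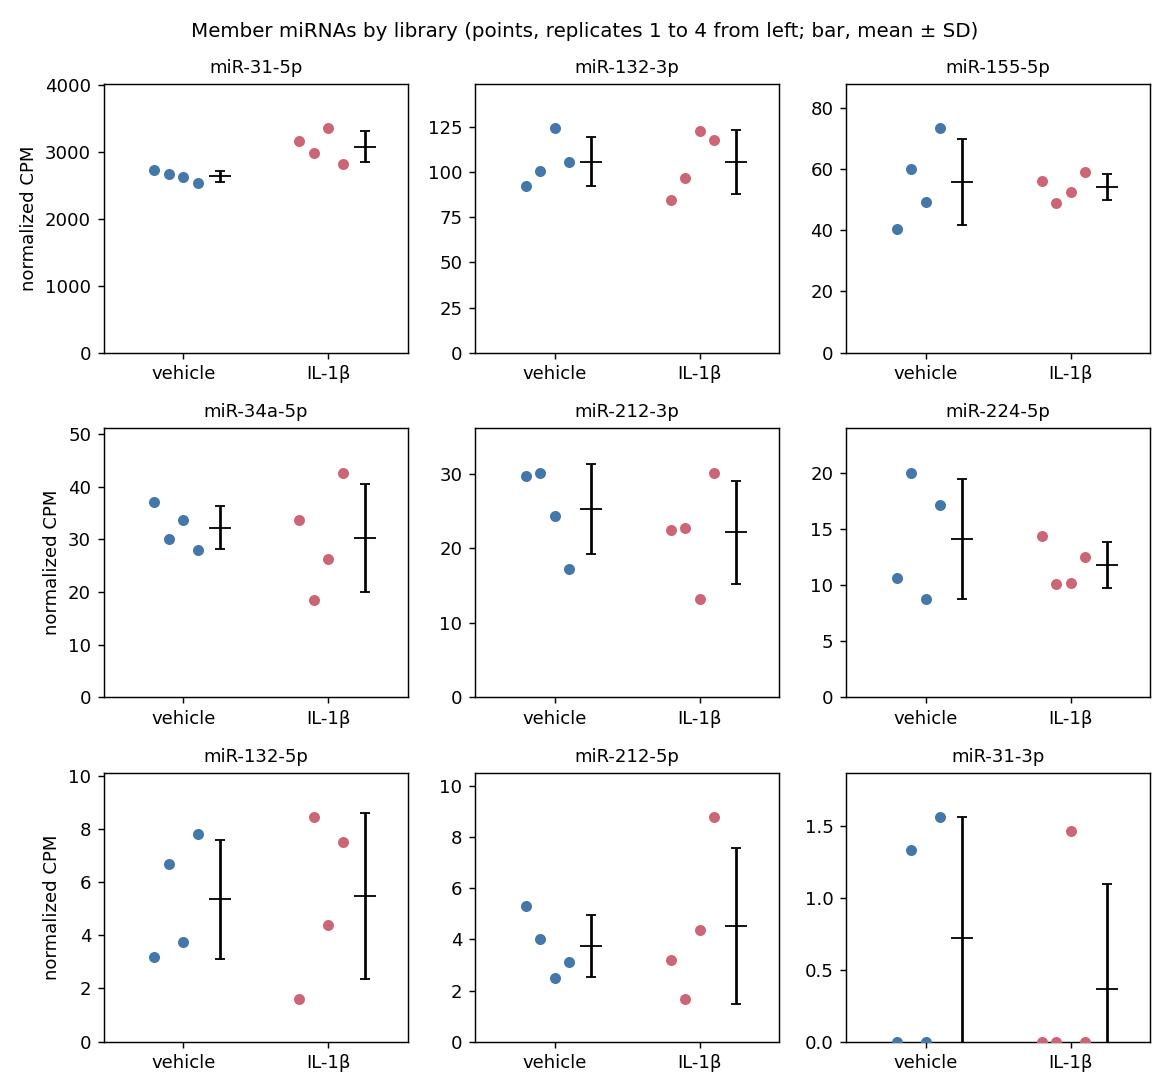
Normalized CPM of the 9 members in each library, with a separate linear axis from 0 for each; points are libraries (replicates 1 to 4 from left to right) and bars the mean ± SD (n = 4). The IL-1β libraries lie above all vehicle libraries for miR-31-5p (2816 to 3351 against 2533 to 2732), whereas the groups overlap for the other 8.

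To examine whether these miRNAs respond to IL-1β in chondrocytes, the groups were compared with the quasi-likelihood test of edgeR over all 564 tested miRNAs. A miRNA was called at a Benjamini-Hochberg adjusted p under 0.05 and an absolute log2 fold change over 0.3. None of the 8 tested members was called by edgeR, and none by DESeq2, which gave no adjusted p for miR-132-5p, miR-212-5p and miR-224-5p. Over the whole table edgeR called 11 of 564 miRNAs (1.95%), 8 higher and 3 lower with IL-1β. At an unadjusted p under 0.05 there was 1 member, miR-31-5p, against 11.2% of all tested miRNAs. The members' log2 fold changes were above 0 for 3 and below 0 for 5, with a median of -0.020, beside a median of 0.0063 over all tested miRNAs, of which 50.5% were above 0. The groups did not overlap for 1 member, against 7.62% of all tested miRNAs. The 95% interval of the log2 fold change had an upper bound under a 1.5-fold rise for 6 of the 8 members, and for 50% of all tested miRNAs. The same 6 were bounded under a 2-fold rise, as were 66.1% of all tested miRNAs. The exceptions were miR-132-5p and miR-212-5p. For miR-224-5p this limit depended on vehicle replicate 2, without which its upper bound was 0.78 on the log2 scale in place of 0.42, over a 1.5-fold rise and under a 2-fold rise.

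**Figure D2:**
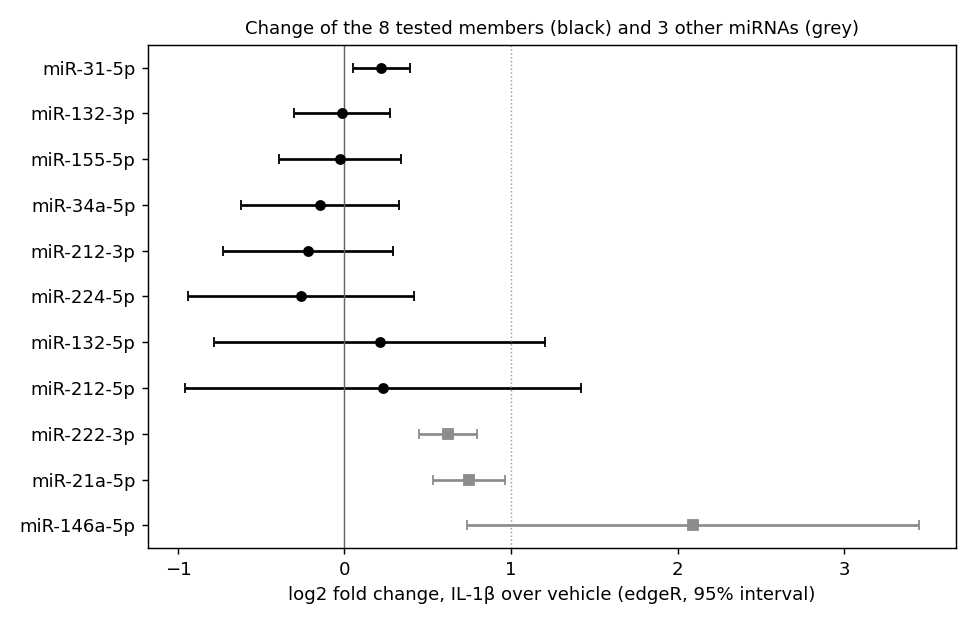
Log2 fold changes of IL-1β over vehicle with 95% intervals from edgeR (n = 4 libraries per group), for the 8 tested members (black circles) and for miR-222-3p, miR-21a-5p and miR-146a-5p (grey squares). The interval of miR-31-5p lies above 0 (0.05 to 0.39), those of the other 7 members include 0, and the dotted line marks a log2 fold change of 1.

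mmu-miR-31-5p was the member with the largest number of counts, 22464 over the 8 libraries. In vehicle replicates 1 to 4 its abundance was 2732, 2664, 2628 and 2533 normalized CPM. With IL-1β the corresponding libraries held 3170.5, 2984, 3351 and 2816 normalized CPM. Each IL-1β library thus lay above the highest vehicle library, a pattern that 4.61% of the tested miRNAs showed in this direction. The means were 2639 ± 83.2 in vehicle libraries and 3080.4 ± 231 in IL-1β libraries (SD, n = 4), a 1.17-fold ratio. In edgeR the log2 fold change was 0.22 (SE 0.0818, 95% interval 0.05 to 0.39), with an unadjusted p of 0.0120 and an adjusted p of 0.196. miR-31-5p therefore did not pass the threshold, and its interval extended to a 1.31-fold rise.

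The test of miR-31-5p depended on single libraries. Without vehicle replicate 4 the 95% interval ran from -0.023 to 0.37 and without IL-1β replicate 3 from -0.017 to 0.35, so that it included 0, and the unadjusted p of edgeR was 0.0795 and 0.0733. Leaving out IL-1β replicate 4, the lowest of its group, gave a log2 fold change of 0.26 with an edgeR adjusted p of 0.00917, and the change was still below the 0.3 asked for. Over its 15 alternatives the log2 fold change ranged from 0.17 to 0.26 and the adjusted p from 0.00917 to 0.590. The spread of miR-31-5p was larger than counting alone gives, with an SD of 83.2 normalized CPM with vehicle where counting error gives 50.8, and of 231 with IL-1β where it gives 63.0.

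The miRNAs whose log2 abundance followed that of miR-31-5p most closely over the 8 libraries, among the 194 others with a mean of at least 50 counts, were miR-222-3p (Pearson r = 0.88) and miR-221-3p (r = 0.86). Part of this likeness was the difference between the groups. For deviations from the group means, r was 0.48 for miR-222-3p and 0.63 for miR-221-3p. The libraries share their depth and scaling across all miRNAs, and no test was made. miR-222-3p was at 2729 ± 68.2 in vehicle libraries and 4198 ± 385 in IL-1β libraries (SD, n = 4), a log2 fold change of 0.62 that was called. miR-221-3p was at 397 ± 14.6 and 429 ± 17.0 normalized CPM (SD, n = 4), a log2 fold change of 0.11 that was not called (edgeR adjusted p = 0.753).

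**Figure D3:**
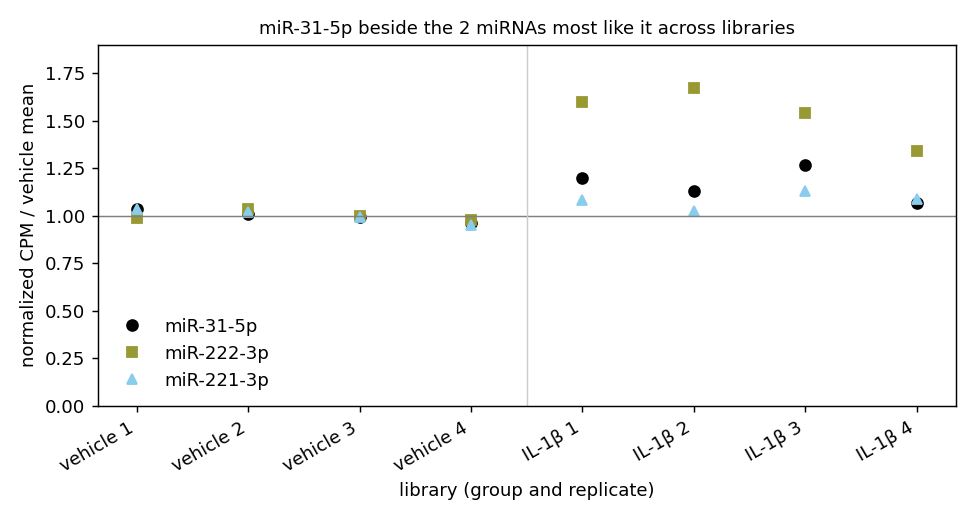
Normalized CPM of miR-31-5p, miR-222-3p and miR-221-3p in each library, divided by the mean of the 4 vehicle libraries of the same miRNA (linear axis from 0). In IL-1β libraries miR-31-5p (mean ratio 1.17) lies below miR-222-3p (log2 fold change 0.62) in each of the 4.

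The opposite arm, miR-31-3p, was nearly absent. It had 4 counts in all, 2 in vehicle replicate 2 and 1 each in vehicle replicate 4 and IL-1β replicate 3. This was 0.0178% of the counts of both arms (exact 95% interval 0.00485 to 0.0456%, counting error only). miR-31-3p did not pass the filter. In an edgeR fit without the filter, the 95% interval of its log2 fold change ran from -3.61 to 1.91.

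mmu-miR-155-5p is the member best known from activated immune cells. In vehicle replicates 1 to 4 it was at 40.3, 60.1, 49.4 and 73.2 normalized CPM, from 38 to 90 counts per library. The IL-1β libraries gave 56.0, 48.9, 52.6 and 58.9 in the same order, from 35 to 58 counts. All 4 IL-1β libraries lay within the range of the vehicle libraries. The means were 55.7 ± 14.2 and 54.1 ± 4.32 (SD, n = 4). The log2 fold change was -0.025 (SE 0.177, edgeR adjusted p = 0.992), and its 95% interval ran from -0.39 to 0.34, that is from 0.763-fold to 1.27-fold. Leaving out a single library gave values from -0.14 (without vehicle replicate 1) to 0.055 (without vehicle replicate 4).

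Counting alone gives an SD of 7.38 normalized CPM for miR-155-5p with vehicle and 8.35 with IL-1β, so that the IL-1β libraries differed from each other by less than counting error and the vehicle libraries by more. Its other arm, miR-155-3p, had 2 counts, 1 each in IL-1β replicates 1 and 4. The haematopoietic list, measured for comparison, held 6 miRNAs, of which miR-142a-3p, miR-223-3p, miR-144-3p and miR-451a were at 0 in every library. With totals not scaled by TMM, the list summed to 44.1 to 63.8 CPM with vehicle and 25.95 to 47.1 CPM with IL-1β. Of its 374 counts, 370 were of miR-150-5p, which was not called (log2 fold change -0.51, edgeR adjusted p = 0.196). The part of other cells in the level of miR-155-5p was not tested. The miRNAs most like miR-155-5p over the 8 libraries were miR-134-5p (r = 0.65) and miR-542-5p (r = 0.54), and for deviations from the group means r was 0.65 and 0.62.

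miR-132-3p and miR-212-3p share the seed AACAGUC and a transcript, and were examined together. mmu-miR-132-3p was at 92.2, 100.8, 124 and 106 normalized CPM in vehicle replicates 1 to 4. The IL-1β libraries in the same order gave 84.8, 96.9, 123 and 118. The groups overlapped, with 3 of the 4 IL-1β libraries inside the vehicle range and 1 below it. Its means were 106 ± 13.6 and 106 ± 17.8 (SD, n = 4), and the log2 fold change was -0.014 (SE 0.140, 95% interval -0.30 to 0.27, edgeR adjusted p = 0.992). Leaving out IL-1β replicate 3 gave -0.10, and leaving out vehicle replicate 3 gave 0.085. The most similar miRNAs over the libraries were miR-298-5p (r = 0.63) and miR-130a-3p (r = 0.62), with 0.84 and 0.69 for deviations from the group means.

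mmu-miR-212-3p was at 29.7, 30.03, 24.4 and 17.1 normalized CPM in vehicle replicates 1 to 4, and at 22.4, 22.8, 13.2 and 30.1 in IL-1β replicates 1 to 4. The lowest and the highest of these 8 libraries, IL-1β replicates 3 and 4, both belonged to the IL-1β group. The means were 25.3 ± 6.03 and 22.1 ± 6.93 (SD, n = 4), close to the SD that counting alone gives (4.97 and 5.34). The log2 fold change was -0.22 (SE 0.248, 95% interval -0.73 to 0.29, edgeR adjusted p = 0.794). It was -0.074 without IL-1β replicate 3 and -0.39 without IL-1β replicate 4.

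Within a library the ratio of miR-132-3p to miR-212-3p does not depend on scaling. Computed with 0.5 added to each count, it was 3.07, 3.33, 5.05 and 5.96 in vehicle replicates 1 to 4 and 3.69, 4.2, 8.89 and 3.86 in IL-1β replicates 1 to 4, so miR-132-3p was the more abundant in every library. On the log2 scale the means were 2.07 ± 0.46 and 2.26 ± 0.60 (SD, n = 4). The difference of 0.20 did not exceed the spread between libraries (exact permutation test over 70 arrangements, two-sided p = 0.686, where the smallest possible is 0.0286). Without IL-1β replicate 3 it was -0.10 (exact permutation p = 0.714). Since both can pair with the same seed matches, their counts were also summed. The pair was at 131 ± 12.3 normalized CPM in vehicle libraries and 128 ± 20.9 in IL-1β libraries (SD, n = 4), 81.2% of it miR-132-3p, and its log2 fold change was -0.044 (95% interval -0.30 to 0.22, edgeR adjusted p over 421 seed families 0.940).

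The 5p arms of this pair, which carry other seeds, were scarce. miR-132-5p had 44 counts in all and lay at 3.18 to 7.79 normalized CPM with vehicle and 1.6 to 8.43 with IL-1β. miR-212-5p had 31 counts and lay at 2.5 to 5.3 with vehicle and 1.69 to 8.77 with IL-1β. The ranges of the groups overlapped for both, and the IL-1β libraries held the lowest and the highest value of each. The log2 fold changes were 0.21 (95% interval -0.78 to 1.21) and 0.23 (95% interval -0.96 to 1.42), with edgeR adjusted p-values of 0.922 and 0.929. The direction of each turned on 1 library, to -0.16 for miR-132-5p without IL-1β replicate 2 and to -0.35 for miR-212-5p without IL-1β replicate 4. Their intervals included a 2-fold rise (upper bounds 2.31-fold and 2.67-fold), so a rise of this size was not excluded.

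Most reads of both hairpins came from the 3p arm. For miR-132 the 3p arm took 92.0% to 98.1% of the counts of both arms in the 8 libraries, with a mean of 95.2% ± 1.99 in vehicle libraries and 95.2% ± 2.72 in IL-1β libraries (SD, n = 4). For miR-212 it took 75% to 93.1%, with means of 87.1% ± 2.91 and 83.3% ± 8.51 (SD, n = 4). The 2 lowest shares of miR-212 were those of IL-1β replicates 3 and 4, at 75% and 77.4%. The balance of the arms was tested with limma on the log2 ratio of 5p to 3p over 142 hairpins with both arms tested, of which 2 were called (1.41%). Neither member hairpin was. The log2 ratio differed by 0.00046 for miR-132 (SE 0.521, 95% interval -1.02 to 1.02) and by 0.34 for miR-212 (SE 0.620, 95% interval -0.87 to 1.56), with limma adjusted p-values of 0.999 and 0.944. The value of miR-212 was 0.061 without IL-1β replicate 3 and 0.73 without IL-1β replicate 2. That of miR-132 was -0.27 without IL-1β replicate 2 and 0.30 without IL-1β replicate 1. miR-31 showed the opposite balance, as its 3p arm was the scarce one.

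**Figure D4:**
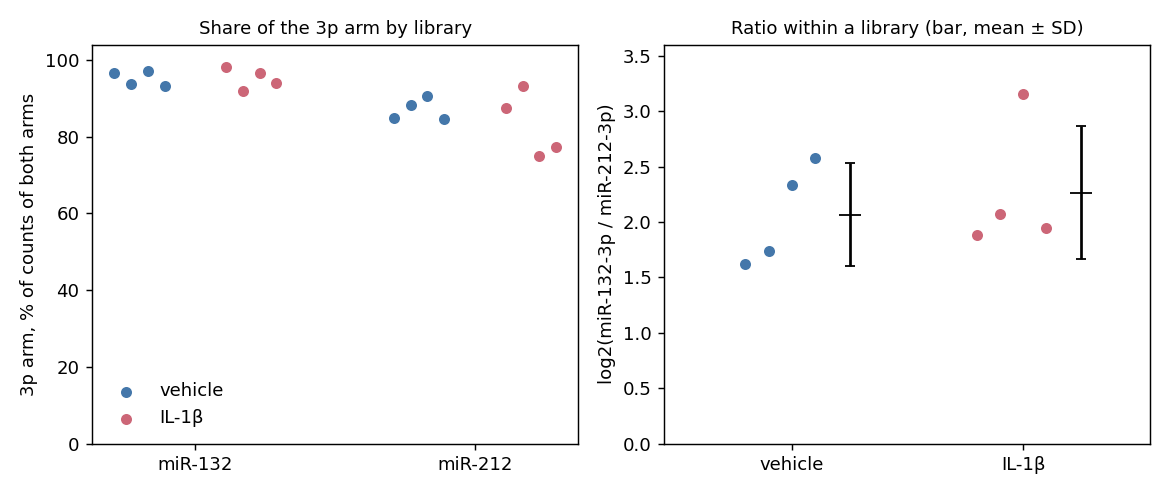
Left, share of the 3p arm in the counts of both arms of miR-132 and miR-212 in each library, in percent. Right, log2 ratio of miR-132-3p to miR-212-3p in each library with the mean ± SD (n = 4); the groups overlap in both plots, and the highest ratio is that of IL-1β replicate 3 (8.89 on the linear scale, with 0.5 added to each count).

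mmu-miR-34a-5p was at 37.1, 30.03, 33.7 and 28.0 normalized CPM in vehicle replicates 1 to 4, and at 33.6, 18.5, 26.3 and 42.6 in IL-1β replicates 1 to 4. Of the IL-1β libraries 1 lay above the vehicle range, 1 within it and 2 below it. The means were 32.2 ± 4.02 and 30.3 ± 10.3 (SD, n = 4), and the log2 fold change was -0.15 (SE 0.230, 95% interval -0.62 to 0.33, edgeR adjusted p = 0.871). The value was -0.39 without IL-1β replicate 4 and 0.055 without IL-1β replicate 2. miR-34a-3p had 2 counts in all.

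The miR-34 and miR-449 family, to which miR-34a belongs, was followed through 7 other names. Of these, 3 were tested and none was called by edgeR (no unadjusted p under 0.05, the lowest 0.192). miR-34c-5p was more abundant than miR-34a-5p, at 106 ± 18.0 normalized CPM in vehicle libraries and 116 ± 11.6 in IL-1β libraries (SD, n = 4), and its log2 fold change was 0.12 (edgeR adjusted p = 0.794). It exceeded miR-34a-5p in each of the 8 libraries. For miR-34b-3p the means were 49.9 ± 6.63 and 44.0 ± 4.98 (SD, n = 4), and the log2 fold change -0.13 did not pass (edgeR adjusted p = 0.807). The scarcer miR-34c-3p, with 42 counts in all, was at 6.51 ± 2.12 and 3.99 ± 0.858 (SD, n = 4), a log2 fold change of -0.64 (95% interval -1.63 to 0.34, edgeR adjusted p = 0.740). miR-34b-5p, miR-449a-5p and miR-449c-5p had 8, 2 and 2 counts.

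mmu-miR-224-5p was at 10.6, 20.02, 8.75 and 17.1 normalized CPM in vehicle replicates 1 to 4, from 10 to 30 counts. The IL-1β libraries gave 14.4, 10.1, 10.2 and 12.5, from 7 to 12 counts. All 4 IL-1β values lay within the vehicle range. The means were 14.1 ± 5.33 and 11.8 ± 2.05 (SD, n = 4), where counting alone gives an SD of 3.72 and 3.9. The log2 fold change was -0.26 (SE 0.329, 95% interval -0.94 to 0.42, edgeR adjusted p = 0.807). Its direction rested on vehicle replicate 2, the highest of the 8 libraries, without which the value was 0.049, and without vehicle replicate 3 it was -0.49. Its opposite arm and both arms of miR-452, from the neighboring hairpin in Gabre, had 0 counts in every library. A count of 0 allows up to 3 counts, which were worth 1.87 to 4.8 normalized CPM depending on the library.

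For comparison, a list of 20 other inflammation-linked miRNAs was examined in the same fit. Of these, 16 were tested, 2 were called as higher with IL-1β and none as lower, beside 1.42% of all tested miRNAs called as higher. The median log2 fold change of the list was 0.25, beside 0.0063 over all tested miRNAs, and the list was chosen with earlier results of these data known. miR-222-3p, with targets among cell cycle inhibitors, had a log2 fold change of 0.62 (95% interval 0.45 to 0.80). miR-21a-5p, which represses Pdcd4, had means of 355 ± 24.4 and 597 ± 92.9 (SD, n = 4), which is 0.75 on the log2 scale (95% interval 0.53 to 0.96). miR-146a-5p, a feedback inhibitor of NF-κB signaling through Traf6 and Irak1, averaged 86.1 ± 10.8 in vehicle libraries and 373 ± 300.02 in IL-1β libraries (SD, n = 4). IL-1β replicate 4 reached 821 normalized CPM and the other IL-1β libraries 201 to 269, all above the vehicle libraries. Its log2 fold change was 2.09, with a 95% interval above 0 (0.74 to 3.45). The edgeR unadjusted p was 0.00883 and the adjusted p 0.184, so miR-146a-5p did not pass here. The study reported it as raised by IL-1β in its miRNA-seq and by qPCR. Differences in response between these miRNAs and the members were not tested.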

How the data were processed

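miRNA-seq counts of 8 libraries were analysed. Per the labels and the methods of the study, the authors trimmed reads with cutadapt, aligned them to mm10 with STAR and counted them with featureCounts. The STAR version was 2.4.2a in the submitters' processing notes, and the methods of the study name another. Counts per mature miRNA were deposited. Whether these whole-number columns carry the RUVseq correction they describe was not tested. How reads with several loci and strand were treated was not stated. Groups were taken from the sample titles.

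From these counts, edgeR 4.0.16 in R 4.3.3 was run (robust quasi-likelihood, two-sided, TMM, group only) on miRNAs over 1 CPM in at least 4 libraries. SE is the log2 fold change divided by the square root of F, and intervals use the t distribution. Ratios of counts had a pseudocount of 0.5, and arm ratios were fitted with limma 3.58.1, with the prior variance following the counts. The edgeR and limma fits were tested on simulated data, and the other methods were not. The simulated data held no outlying library such as IL-1β replicate 4. Alternatives used DESeq2 1.42.0 and sva 3.50.0. A sum by seed, over the 1675 names with a RefSeq sequence, was added after the data were seen. Intervals of shares and limits for a count of 0 include counting error alone, as no molecular identifiers were described.

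The members and lists were chosen with earlier results of these data known. Other miRNAs were named by rule: other arms, shared seeds, hairpins within 10 kb, the list of inflammation-linked miRNAs (its calls and miR-146a-5p), marker lists, and the 2 most correlated miRNAs for members with a mean of at least 50 counts.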

Additional observations from a re-analysis of the deposited data

How the results depend on the processing

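None of the members was called under any alternative tried (other scaling, other filters, DESeq2, the replicate block, a surrogate variable, each library left out, or, for miR-132-3p and miR-212-3p, counts summed by seed). Not every alternative covered every member. A filter at a mean of 10 counts left out miR-132-5p and miR-212-5p, and DESeq2 gave no adjusted p for either or for miR-224-5p. miR-31-3p was fitted only without a filter. Of 120 alternative log2 fold changes of members, 112 kept the sign of the reported value and 8 did not, all of the 8 on leaving out a library. With each library left out in turn, values ranged from -0.14 to 0.055 for miR-155-5p, from -0.10 to 0.085 for miR-132-3p, from -0.16 to 0.44 for miR-132-5p, from -0.35 to 0.58 for miR-212-5p, from -0.39 to -0.074 for miR-212-3p, from -0.49 to 0.049 for miR-224-5p and from -0.39 to 0.055 for miR-34a-5p, and the cause was not tested. For the arm balance of miR-132 the value was -0.082 with a pseudocount of 0.1 and -0.27 to 0.30 with a library left out, for that of miR-212 it was 0.061 to 0.73 with a library left out, and the number of hairpins called was then 1 to 3. The log2 ratio of miR-132-3p to miR-212-3p ranged from -0.10 to 0.37. The number of all miRNAs called was 19 with the replicate block, 18 with a surrogate variable and 6 to 19 with a library left out (6 without vehicle replicate 4, 19 without IL-1β replicate 4). Deviations of same-numbered libraries were weakly or inversely correlated (r = 0.17, -0.34, 0.10 and -0.18 over 195 miRNAs). Vehicle replicates 1 and 3 still correlated best with the IL-1β library of their own number. The labels did not state a pairing, and the numbers were not taken as pairs. For miR-132-5p and miR-212-5p, each under 50 counts in all, a 2-fold rise lay within the interval.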
